A study of Sus scrofa with 12 samples.

Results

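Long noncoding RNAs (lncRNAs) are transcripts that carry no long open reading frame. Many are spliced, capped and polyadenylated like messenger RNA. Known members act as scaffolds of nuclear bodies, silence chromosomes or neighbouring genes, or serve as precursors of small RNAs, and as a class they tend to be more restricted to single tissues and states than protein-coding genes. The oviduct epithelium, in which they were measured here, is made of multiciliated cells, which move gametes and embryos, and of secretory cells, which make the oviductal fluid.

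The 200 most abundant lncRNAs of pig oviduct epithelial cells are described here. They were chosen by their mean deposited CPM (the count scaled to the total of its library) over all 12 libraries, from the 6472 rows that the deposited table marks as lncRNA, among 30461 gene rows in all. RNA was profiled by bulk 3′ mRNA sequencing, which reads the ends of polyadenylated transcripts, in 3 groups of 4 libraries. Fresh cells were epithelial cells scraped from the oviduct as single cells. DMEM/F12 spheroids and incubation medium spheroids were 3-dimensional cell clusters formed in the medium of that name. The library names carry FBS for the first and Diff for the second, and the labels give neither medium's composition, nor the age, strain or number of the animals. They do not say that replicates came from separate animals, so p-values measure the spread between these libraries.

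None of the lncRNA rows carried a gene symbol (0 of 6472), against 11706 of 20409 protein-coding rows, and 0 of their identifiers were in the available pig gene tables. Of a list of 42 well-studied lncRNAs, MALAT1, NEAT1, XIST and GAS5 among them, 0 symbols stood on any row, so no value is given for them. The members are therefore named by identifier and by their rank. The table gives no lengths. A rank orders CPM per row, in libraries that read the ends of transcripts. Total counts per library ran from 5045218 to 8603809 and were lower in every fresh cell library than in any spheroid library. Replicates scattered beyond counting error, with a chi-square of 5.61 to 16.1 per degree of freedom in pairs of the same group. All 200 members passed the filter on low counts, and a member's lowest count within the fresh cell, DMEM/F12 and incubation medium groups had a median of 114, 123 and 101.5.

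Mean CPM fell off steeply along the ranking, from 1469 at rank 1 to 20.3 at rank 100 and 9.80 at rank 200, and 17 members reached a mean of 100. Just inside the limit, ENSSSCG00025040213 averaged 17.6 ± 2.85 CPM (SD, n = 4) in the fresh group, 5.76 ± 0.612 in DMEM/F12 and 6.19 ± 0.787 in incubation medium, and ENSSSCG00025010945 (rank 200) had a mean of 9.80 CPM over the 12 libraries. The first rows outside it, ENSSSCG00025044250 and ENSSSCG00025007114, had means of 9.74 and 9.68 CPM. The ranking differed by group: 167 members were also among the 200 highest lncRNA rows by the fresh cell mean, 163 by the DMEM/F12 mean and 166 by the incubation medium mean. The mean over all libraries chose the members, while differences between groups did not enter the choice, except that a row high in 1 group could enter through that group. Counts that were not whole occurred in at least 1 library for 139 members and in none for 61. In such counts some reads entered in part, by a rule that the sources used here do not give, so these levels are uncertain. The 139 members held 79.8 to 83.6% of the members' counts, depending on the library. Of the 10 most abundant, only rank 5 was whole in every library.

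LncRNA rows held a smaller share of the counts in spheroids than in fresh cells. Over all 6472 rows the share was 1.61, 1.79, 1.82 and 1.88% in fresh cell replicates 1 to 4. It was 1.21, 1.24, 1.12 and 1.25% in DMEM/F12 spheroids. In incubation medium spheroids it was 1.08, 1.09, 1.03 and 1.19%. Every spheroid library lay below every fresh cell library, with a difference of means of -0.57 percentage points for DMEM/F12 and -0.68 for incubation medium (two-sided exact permutation test, adjusted p = 0.0429 over 3 comparisons for each, where the raw p was the smallest that 4 against 4 allows). With the replicate numbers as pairs the smallest exact p is 0.125, which both comparisons gave. Between the media the difference was -0.11 points (exact permutation p = 0.0571, also after adjustment). The ranges overlapped, but the share was lower in incubation medium in all 4 pairs of the same replicate number, which gave the same smallest exact p of 0.125. More lncRNA rows stood above 3 counts in fresh cells, 1409 to 1464 per library, than in spheroids, 1145 to 1328, although the fresh cell libraries were smaller. The same count was not made for other rows, so this need not be particular to lncRNAs.

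**Figure D1:**
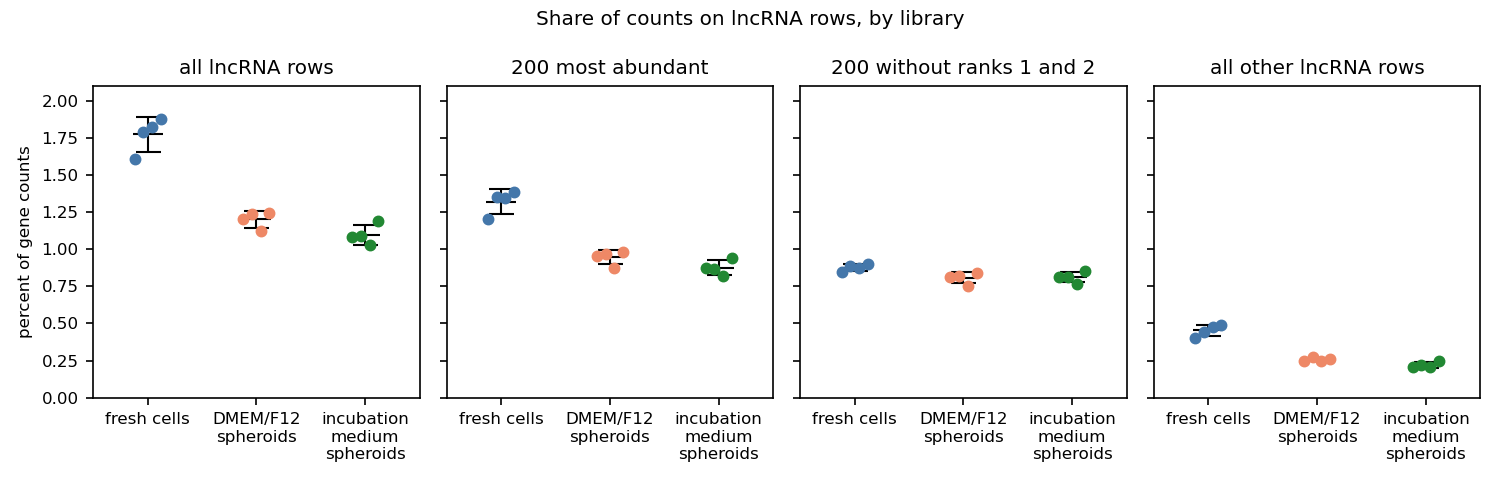
Percent of each library's gene counts (vertical axis) on all lncRNA rows, on the 200 most abundant, on these without ranks 1 and 2, and on all other lncRNA rows, by group; points are libraries and bars are mean ± SD (n = 4). The fresh cell mean of 1.77% for all lncRNA rows stands above the 1.20% and 1.10% of the spheroid groups, and among the 200 members without ranks 1 and 2 the means are 0.876%, 0.807% and 0.812%. These last means still include rank 3, which was higher in spheroids.

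Taking out ranks 1 and 2 removed most of the net difference among the 200. The members together held 1.32% ± 0.0818 (SD, n = 4) of the counts in the fresh group, 0.946% ± 0.0477 in DMEM/F12 and 0.875% ± 0.05 in incubation medium. Without ranks 1 and 2 these shares were 0.876% ± 0.0228, 0.807% ± 0.0370 and 0.812% ± 0.0362. The highest DMEM/F12 library (0.841%) was then just below the lowest fresh cell library (0.846%). With rank 3 included, the incubation medium libraries (0.767 to 0.855%) overlapped the fresh ones. The 6272 lncRNA rows outside the members held 0.453% ± 0.0378, 0.257% ± 0.0121 and 0.221% ± 0.0191. The share was thus lower in spheroids among these rows too. The ranking used a mean over more spheroid than fresh cell libraries. Rows high only in fresh cells were therefore more readily left outside the members than rows high only in spheroids. The lower spheroid share of the outside rows is thus partly set by the choice of rows. The share without ranks 1 and 2 still held rank 3. That row rose from a mean of 181 CPM in fresh cells to 900 in DMEM/F12 and 967 in incubation medium. Its rise offset falls of other members, so this share does not show how far the rest fell. The 10 highest members held 47.1 to 51.1% of the members' counts in fresh cell libraries, 42.3 to 46.1% in DMEM/F12 and 38.0 to 42.5% in incubation medium libraries. Because these are bulk samples, fewer cells of a type and less RNA per cell cannot be told apart.

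Rank 1, ENSSSCG00025076010, was the highest lncRNA row by CPM in the fresh and DMEM/F12 groups and came next after rank 3 in incubation medium. Its CPM was 1723, 2349, 2975 and 3153 in fresh cell replicates 1 to 4. It was 1341, 1392, 1120 and 1309 in DMEM/F12 spheroids. In incubation medium spheroids it was 532, 485, 469 and 785. The 3 groups did not overlap, and the level stepped down from fresh cells to DMEM/F12 to incubation medium. Counts of this row were not whole in 7 of 12 libraries. The log2 fold change against fresh cells was -1.05 (SE 0.18, edgeR adjusted p = 0.000116) in DMEM/F12 and -2.14 (SE 0.19, adjusted p = 1.55e-07) in incubation medium, and it was -1.08 between the media (SE 0.18, adjusted p = 0.000647).

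Rank 2, ENSSSCG00025009660, was close to rank 1 in fresh cells and much lower in culture. Fresh cell replicates held 1839, 2279, 1782 and 1737 CPM. DMEM/F12 spheroids held 120, 77.4, 91.2 and 101.3 CPM, and incubation medium spheroids 61.1, 45.9, 54.4 and 67.1. The row was 20.7-fold lower in DMEM/F12 (log2 fold change -4.37, SE 0.17, adjusted p = 1.01e-10) and 33.1-fold lower in incubation medium (-5.05, SE 0.18, adjusted p = 3.42e-11), with no library in between. Its place among lncRNA rows went from 2 in the fresh group to 18 in DMEM/F12 and 31 in incubation medium. The media also differed without overlap (log2 fold change -0.68, SE 0.15, adjusted p = 0.00552).

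Rank 3, ENSSSCG00025050687, went the other way. It held 208, 172, 151.5 and 192 CPM in fresh cells. DMEM/F12 spheroids held 991, 837, 728 and 1042, and incubation medium spheroids 944, 788, 910 and 1228. Both spheroid groups lay wholly above the fresh cells, 4.70-fold in DMEM/F12 (log2 fold change 2.23, SE 0.16, adjusted p = 2.17e-08) and 5.41-fold in incubation medium (2.44, SE 0.16, adjusted p = 1.00e-08), while the media overlapped (0.20, 95% interval -0.12 to 0.53, adjusted p = 0.363). It was the highest lncRNA row in incubation medium spheroids. Its counts were not whole in 10 of 12 libraries.

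The other 7 of the 10 most abundant rows moved less. ENSSSCG00025063518 (rank 5), whose counts were whole in every library, held 351, 348, 289 and 404 CPM in fresh cells. DMEM/F12 spheroids held 433, 399, 335 and 441 CPM and incubation medium spheroids 349, 358, 295 and 426. Its groups overlapped in all 3 comparisons, and the 95% intervals of its log2 fold changes against fresh cells were -0.15 to 0.40 and -0.22 to 0.33. Replicate 3 was the lowest of its group for this row in every group. ENSSSCG00025075346 (rank 4) averaged 516 ± 69.6 CPM in the fresh group, 380 ± 42.1 in DMEM/F12 and 454 ± 80.2 in incubation medium. It was called lower in DMEM/F12 (log2 fold change -0.52, adjusted p = 0.00233) but not in incubation medium (-0.17, adjusted p = 0.251). Between the media it was not called (0.35, adjusted p = 0.0609), though it was with the replicate block (0.34, adjusted p = 0.00747) and without incubation medium replicate 3 (0.44, adjusted p = 0.0258).

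ENSSSCG00025072301 (rank 6) and ENSSSCG00025032810 (rank 7) fell modestly in both media, without overlap with fresh cells. Rank 6 averaged 390 ± 27.3 CPM in fresh cells, 281 ± 9.51 in DMEM/F12 and 298 ± 19.6 in incubation medium (log2 fold changes -0.55 and -0.37, adjusted p = 1.28e-05 and 0.000418). Rank 7 averaged 303 ± 32.1, 208 ± 18.6 and 228 ± 16.9 CPM (-0.61 and -0.39, adjusted p = 2.18e-05 and 0.00114). Ranks 8 to 10 rose. ENSSSCG00025074111 (rank 8) went from 145 ± 10.1 to 192 ± 10.6 and 218 ± 8.91 CPM (0.33 and 0.61, adjusted p = 0.00137 and 6.51e-06). ENSSSCG00025035374 (rank 9), not whole in 9 of 12 libraries, went from 106 ± 11.5 to 202 ± 16.6 and 216 ± 13.8 CPM (0.85 and 1.04, adjusted p = 1.62e-06 and 2.2e-07). ENSSSCG00025027412 (rank 10) was not whole in any of the 12 libraries and was highest in DMEM/F12 spheroids, at 238 ± 41.3 CPM against 113 ± 8.38 in fresh cells and 144 ± 14.8 in incubation medium. Its log2 fold changes were 1.00 (adjusted p = 2.38e-06) and 0.37 (adjusted p = 0.00989) against fresh cells and -0.63 (adjusted p = 0.00102) between the media, in each case without overlap.

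**Figure D2:**
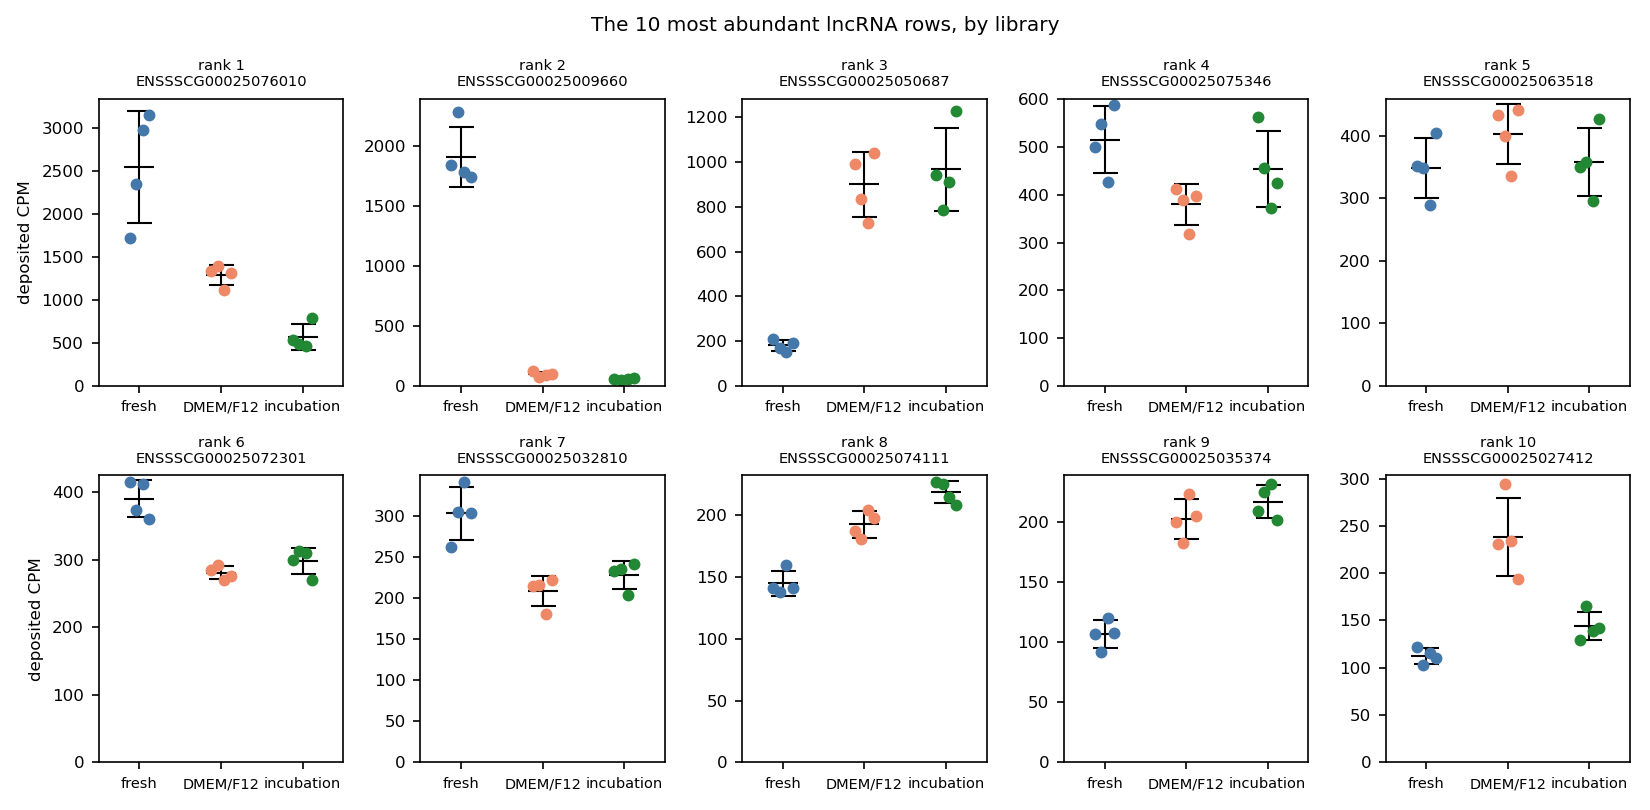
Deposited CPM (vertical axis, from 0) of the 10 most abundant lncRNA rows in each group; points are libraries, bars are mean ± SD (n = 4). Rank 2 drops from a mean of 1909 CPM in fresh cells to 97.6 and 57.1 in spheroids, rank 3 climbs from 181 to 900 and 967, and rank 5 overlaps in all groups.

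The comparison of the DMEM/F12 group with the fresh one asks which of these RNAs differed once spheroids had formed in that medium. Of the 200 members 107 were called lower and 51 higher (edgeR, adjusted p under 0.05), so 53.5% were lower and 25.5% higher. Among all 14070 tested rows 35.7% were called lower and 35.1% higher, 70.7% in all, against 79% of the members. A fall of at least 2-fold was called for 73 members (20.3% of all tested rows) and a rise of at least 2-fold for 20 (15.1%). The groups did not overlap for 75.5% of members, against 65% of all tested rows. The median log2 fold change of the members was -0.52, that of all tested rows -0.01, that of tested protein-coding rows 0.04 and that of the 798 other tested lncRNA rows -0.93.

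The split by rank is a description only, because the rank comes from a mean over 4 fresh cell and 8 spheroid libraries, which places a row that is high in fresh cells alone lower than one that is high in spheroids alone. The same limit holds for the medians of the other tested lncRNA rows in both comparisons, since this ranking left them out. Those rows were also scarcer, with a median mean CPM of 2.38, against 23.7 for tested protein-coding rows. Only 15.4% of lncRNA rows were tested. Of the 50 most abundant members 20 were lower and 18 higher, of ranks 51 to 100, 23 and 15. Of the next 50, 32 were lower and 10 higher, and of the last 50, 32 and 8. In the 61 members with whole counts throughout, 33 were lower and 12 higher, and in the other 139, 74 and 39. Lower members thus outnumbered higher ones both with and without such counts.

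Incubation medium spheroids gave counts of like size against the same fresh cell libraries, 107 members lower and 53 higher. Over all tested rows 35.8% were lower and 35.8% higher, 71.7% in all, against 80% of the members. Falls of at least 2-fold were called for 70 members (21.5% of all tested rows), rises for 23 (15.3%), and the groups did not overlap for 73.5% of members, against 64.5% of all tested rows. The median log2 fold change was -0.41 for the members, -0.01 for all tested rows, 0.05 for protein-coding rows and -1.04 for the other tested lncRNA rows. Of the first 50 ranks 16 were lower and 21 higher, and of the last 50, 32 and 8. Since both comparisons use the same fresh cells, their values are not independent of each other.

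**Figure D3:**
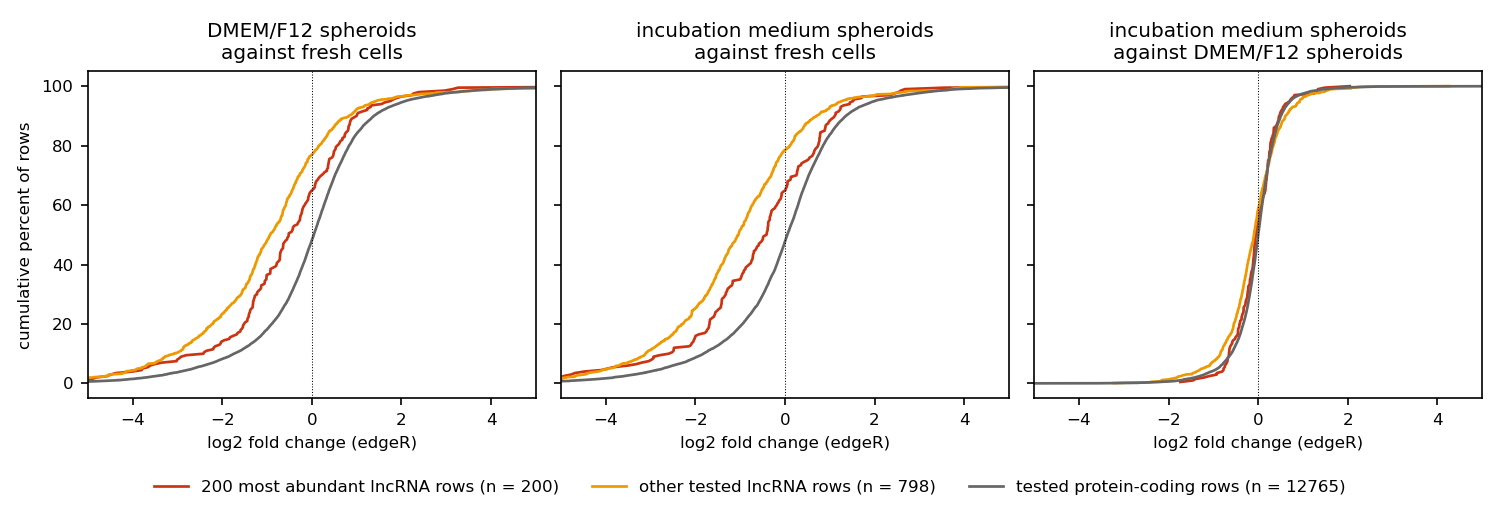
Cumulative percent of rows (vertical axis) at or below each log2 fold change (horizontal axis) in the 3 comparisons, for the 200 members, the 798 other tested lncRNA rows and the 12765 tested protein-coding rows. Against fresh cells both lncRNA curves lie to the left of the protein-coding curve, with member medians of -0.52 and -0.41, and between the media the members' curve is close to the protein-coding one.

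The largest rises against fresh cells came from rows that were scarce there. These rows, at ranks 141, 54, 46 and 64, stood at places 3530, 353, 372 and 333 by the fresh cell mean. They entered the 200 through the spheroids, so their scarcity in fresh cells is partly set by the choice of rows. The rows were also picked for the size of their change. ENSSSCG00025077774 (rank 141) had 1 count over the 4 fresh cell libraries, in replicate 2. DMEM/F12 spheroids held 34.6, 13.1, 13.8 and 26.9 CPM and incubation medium spheroids 28.5, 12.5, 13.7 and 26.6, and it stood at places 88 and 86 among lncRNA rows there. From the summed counts it was 490-fold higher in DMEM/F12 (exact 95% interval 87.7 to 19400) and 454-fold in incubation medium (81.2 to 17960), intervals that cover counting error only. The log2 fold changes of the fit were 8.39 and 8.37 (edgeR adjusted p = 4.17e-07 and 4.29e-07). Without fresh cell replicate 2 they were 10.28 and 10.26, so their size rests on that 1 count. Same-numbered libraries of the media were close to each other, with replicates 1 and 4 above 2 and 3 in both. Its counts were whole in every library.

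ENSSSCG00025012376 (rank 54) had fresh cell values of 7.14, 6.37, 6.82 and 6.34 CPM. It reached 72.7, 74.99, 68.5 and 55.7 CPM in DMEM/F12 and 37.3, 44.8, 42.3 and 34.8 in incubation medium, 3 groups without overlap. The rise was 9.62-fold in DMEM/F12 (log2 fold change 3.27, SE 0.13, adjusted p = 8.87e-11), and the log2 fold change in incubation medium was 2.59 (adjusted p = 7.24e-10), and DMEM/F12 was the higher of the media (-0.68, adjusted p = 0.000282). ENSSSCG00025060384 (rank 46) rose from 5.72, 3.70, 6.92 and 8.52 CPM in fresh cells to 55.6, 49.8, 68.2 and 54.5 in DMEM/F12 and 76.7, 63.0, 70.7 and 78.2 in incubation medium. This was 8.83-fold (log2 fold change 3.14, SE 0.18, adjusted p = 3.4e-09) and 11.9-fold (3.57, SE 0.18, adjusted p = 1.02e-09). Here incubation medium was the higher one, by a log2 fold change of 0.43 with overlapping libraries (adjusted p = 0.0400, lost without any of 6 single libraries, at up to 0.119 without DMEM/F12 replicate 2, and with library totals, at 0.0875). In fresh cells ENSSSCG00025062332 (rank 64) was uneven, at 2.49, 2.58, 10.6 and 12.5 CPM, but it lay at 41.4 to 68.2 CPM in DMEM/F12 and at 39.7 to 46.5 in incubation medium (log2 fold changes 2.96 and 2.68, adjusted p = 3.61e-06 and 9.94e-06).

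The largest falls came from rows that lay under 10 CPM in all spheroid libraries but 1, incubation medium replicate 4 of rank 50. The rows, at ranks 189, 80, 32, 52 and 50, stood at places 953, 448, 206, 356 and 414 by the DMEM/F12 mean. By the incubation medium mean the places were 983, 554, 282, 316 and 176. The rows entered the members mainly through their fresh cell values, so their scarcity in spheroids is partly set by the choice of rows. They were also picked for the size of their change. ENSSSCG00025032378 (rank 189) held 16.7, 40.0, 36.8 and 23.5 CPM in fresh cells, 0 to 1.24 in DMEM/F12 spheroids and 0.383 to 0.923 in incubation medium spheroids. It was 38.0-fold lower in DMEM/F12 (log2 fold change -5.25, SE 0.42, adjusted p = 6.66e-08) and 43.2-fold lower in incubation medium (-5.43, SE 0.43, adjusted p = 6.15e-08). ENSSSCG00025022559 (rank 80) had an even fresh cell level of 81.3, 72.8, 71.1 and 77.9 CPM and fell to 1.58 to 3.86 CPM in DMEM/F12 (-4.82, SE 0.23, adjusted p = 5e-10) and to 0.723 to 2.94 in incubation medium (-5.42, SE 0.24, adjusted p = 3.1e-10). Its counts were whole throughout. Among the fresh cell libraries ENSSSCG00025042599 (rank 32) ran from 125 to 243 CPM, which made it the ninth lncRNA row by the fresh cell mean, and it fell to 6.13 to 8.93 CPM in DMEM/F12 (-4.50, adjusted p = 1.1e-09) and 3.89 to 6.03 in incubation medium (-5.15, adjusted p = 5.46e-10). The media did not overlap for this row but were not called (-0.65, adjusted p = 0.0987), though they were with the replicate block (-0.65, adjusted p = 0.0346).

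ENSSSCG00025075001 (rank 52) held 141, 91.0, 110 and 96.8 CPM in fresh cells and 2.11 to 5.52 in DMEM/F12 and 2.29 to 7.90 in incubation medium, with log2 fold changes of -4.91 (SE 0.31, adjusted p = 6.6e-09) and -4.69 (SE 0.3, adjusted p = 8.22e-09). ENSSSCG00025072686 (rank 50), whole in every library, held 82.8, 98.3, 140 and 109 CPM in fresh cells and 4.11, 2.48, 2.24 and 3.72 in DMEM/F12 (-5.16, SE 0.48, adjusted p = 3.02e-07). In incubation medium spheroids it was 2.79, 6.59 and 2.41 CPM in replicates 1 to 3 and 18.3 in replicate 4 (-3.82, SE 0.43, adjusted p = 1.92e-06). Without that replicate the log2 fold change was -4.76 (adjusted p = 1.2e-08). These 5 rows lay 14.1-fold or more below fresh cells in both media, and all 8 spheroid libraries lay below the 4 fresh cell libraries.

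**Figure D4:**
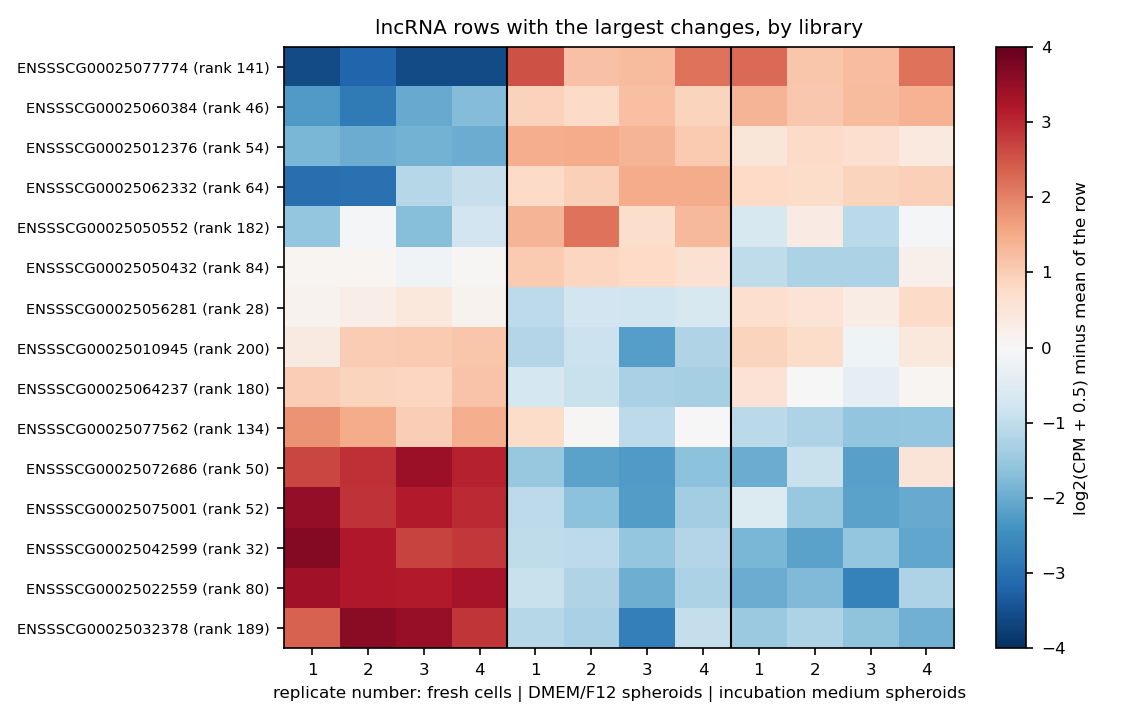
log2(CPM + 0.5) minus the mean of the row (colour, from -4 in blue to 4 in red) for the 15 lncRNA rows with the largest changes in the 3 comparisons, by library, ordered by their changes against fresh cells. The rows at the top are low and those at the bottom high in all 4 fresh cell libraries, and ENSSSCG00025050432 and ENSSSCG00025056281 near the middle differ between the media in opposite directions.

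Marker genes of several cell types moved alongside the members against fresh cells, and their part in the lncRNA changes was not tested. All 5 multiciliated markers found (of 10) were called lower in both media, and their summed CPM ran from 996 to 1148 in fresh cell libraries, 124 to 332 in DMEM/F12 and 122 to 217.5 in incubation medium. Of the 4 oviduct secretory markers found (of 6) 3 were lower and 1 (MUC1) higher in each medium, and they summed to 18400 to 30500, 1157 to 2270 and 1084 to 2068 CPM. Most of the fresh cell sum came from OVGP1, which averaged 21940, 417 and 455 CPM in the 3 groups. SLPI averaged 4148, 455 and 478 CPM, WT1 211, 166 and 122, and MUC1 157, 566 and 461. Stromal and smooth muscle markers summed to 58.1 to 96.0 CPM in fresh cells, 12.7 to 36.6 in DMEM/F12 and 7.11 to 12.4 in incubation medium, with 2 and 4 of 5 tested called lower. Leukocyte markers summed to 430 to 487, 438 to 478 and 493 to 573 CPM, almost all from CD79A, and of 3 tested 1 was called lower in each medium and 1 higher in incubation medium. PTPRC, the common leukocyte antigen, averaged 6.89, 2.64 and 1.17 CPM, and CD14, a monocyte marker, 2.59, 3.35 and 4.44 CPM. Endothelial markers summed to 39.7 to 55.2, 140 to 266 and 89.3 to 141 CPM, with 2 of 3 tested higher and 1 lower in each medium. DES, MS4A1 and VWF stood above 3 counts in 0 libraries, and 0 of the 3 erythrocyte symbols were found. All 5 proliferation markers found (of 6) were higher in both media, from 18.1 to 30.9 CPM in sum to 233 to 277 and 259 to 379.

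Between the spheroid media far fewer members differed than against fresh cells, as was so for all tested rows. Of the 200 members 27 were called lower and 25 higher in incubation medium than in DMEM/F12, 26% against 25% of all tested rows, of which 12.3% were lower and 12.7% higher. With library totals in place of TMM scaling, which shifts the median of all tested rows from 0.00 to -0.10, the split was 38 lower and 18 higher. Differences of at least 2-fold were called for 5 members in each direction (3.38% of all tested rows lower and 2.06% higher). The groups did not overlap for 55 members, against 27.7% of all tested rows. Without DMEM/F12 replicate 4 the calls were 18 lower and 20 higher. The shares of all tested rows given here are those of the main fit, and none is given for these alternatives. The share called was highest in the first 50 ranks, at 19 members, and lowest in the last 50, at 8. Their median absolute log2 fold changes were 0.23 and 0.27, so the higher share called did not go with larger changes. The median absolute log2 fold change was 0.26 for members and 0.25 for all tested rows.

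Of the rows higher in incubation medium, ENSSSCG00025010945 (rank 200) differed most. It held 14.9, 13.3, 6.87 and 10.6 CPM there and 3.21, 4.09, 1.32 and 3.10 in DMEM/F12 (log2 fold change 2.05, SE 0.29, adjusted p = 0.000212). Its fresh cell values of 10.1, 16.2, 16.5 and 17.4 CPM overlapped those in incubation medium (-0.38, adjusted p = 0.204) and were 5.36-fold above DMEM/F12 (adjusted p = 4.54e-06). ENSSSCG00025056281 (rank 28) held 106, 96.1, 81.1 and 112.5 CPM in incubation medium and 31.8, 38.6, 37.6 and 42.4 in DMEM/F12, 2.81-fold apart (log2 fold change 1.49, SE 0.12, adjusted p = 3.01e-06). Its fresh cell libraries, at 73.2, 78.9, 87.7 and 72.7 CPM, lay above DMEM/F12 and overlapped incubation medium in 1 library. It was called lower than fresh cells in DMEM/F12 (-1.13, adjusted p = 1.26e-06) and higher in incubation medium (0.36, adjusted p = 0.0130). ENSSSCG00025064237 (rank 180) held 17.8 ± 1.65 CPM in fresh cells, 4.04 ± 0.969 in DMEM/F12 and 9.52 ± 2.85 in incubation medium (1.32 between the media, SE 0.22, adjusted p = 0.000589), with counts not whole in 10 libraries.

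In the other direction, ENSSSCG00025050552 (rank 182) held 19.5, 34.8, 12.3 and 18.9 CPM in DMEM/F12 and 4.53, 9.36, 3.26 and 6.90 in incubation medium (log2 fold change -1.74, SE 0.38, adjusted p = 0.00415). Fresh cells held 2.16, 7.06, 1.90 and 4.16 CPM, all below DMEM/F12 (2.39 against fresh cells, adjusted p = 0.000141). Incubation medium against fresh cells was not called (0.65, adjusted p = 0.209), though it was with the replicate block (0.68, adjusted p = 0.00637) and without fresh cell replicate 2 (1.17, adjusted p = 0.0400). ENSSSCG00025050432 (rank 84) held 45.0, 39.2, 37.3 and 33.0 CPM in DMEM/F12 and 10.3, 8.57, 8.56 and 25.1 in incubation medium (-1.46, SE 0.27, adjusted p = 0.00154). Its fresh cell libraries, at 19.2 to 22.7 CPM, were below DMEM/F12 (0.74, adjusted p = 0.0237, and 0.0608 without fresh cell replicate 3) and overlapped incubation medium (-0.71, adjusted p = 0.0370, lost without any of 6 single libraries, at up to 0.117). ENSSSCG00025077562 (rank 134) stepped down from 30.1 ± 6.98 CPM in fresh cells to 11.02 ± 5.32 in DMEM/F12 and 3.89 ± 0.730 in incubation medium (-1.40 between the media, SE 0.32, adjusted p = 0.00547), without overlap in any comparison.

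The steadiest members kept within narrow bounds over all 12 libraries. ENSSSCG00025006776 (rank 37), with whole counts, ran from 47.2 to 59.9 CPM, a ratio of highest to lowest of 1.27, and averaged 56.2 ± 2.99, 53.1 ± 4.75 and 52.5 ± 5.60 CPM in the 3 groups. Its 95% intervals against fresh cells were -0.35 to 0.02 and -0.27 to 0.10 (log2). ENSSSCG00025017318 (rank 137) ran up to 16.6 CPM, at a ratio of 1.39, with intervals of -0.47 to 0.04 and -0.39 to 0.12. Steadiness did not keep a row from being called: ENSSSCG00025028442 (rank 21), at 69.4 ± 3.64 CPM in fresh cells, was higher in DMEM/F12 (92.5 ± 2.22, log2 fold change 0.34, adjusted p = 0.00182) and in incubation medium (82.5 ± 7.47, 0.27, adjusted p = 0.00872, with 1 library below a fresh one). These rows were picked for their narrow range, so the range itself is a description.

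Same-numbered libraries of different groups deviated together for some members. The replicate number, whose meaning the labels do not give, was tested as a term beside the group (edgeR, adjusted over all 14070 rows). It was called for 24 of the 200 members, 12%, against 7.19% of all tested rows and 6.52% of the other tested lncRNA rows. The clearest was ENSSSCG00025006936 (rank 20), at 36.0, 62.1, 33.9 and 74.5 CPM in fresh cell replicates 1 to 4. DMEM/F12 spheroids held 46.9, 124, 54.2 and 171 CPM and incubation medium spheroids 47.6, 148, 58.9 and 185 (adjusted p = 3.18e-05). Replicates 2 and 4 were above 1 and 3 in every group, by a ratio of highest to lowest of 2.20, 3.65 and 3.89. ENSSSCG00025021421 (rank 43) ran 26.3, 66.0, 44.2 and 60.1 CPM in fresh cells, 32.6, 67.9, 49.0 and 57.9 in DMEM/F12 and 26.7, 65.6, 41.7 and 47.0 in incubation medium (adjusted p = 3.42e-05), lowest in replicate 1 and highest in replicate 2 in all groups. Next came the rows at ranks 141 (adjusted p = 0.000519), 170 (0.000913) and 182 (0.00122). For rank 182, described above for its difference between the media, replicate 2 was the highest and replicate 3 the lowest of each group. These 5 rows were chosen for this test's values after they were seen.

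**Figure D5:**
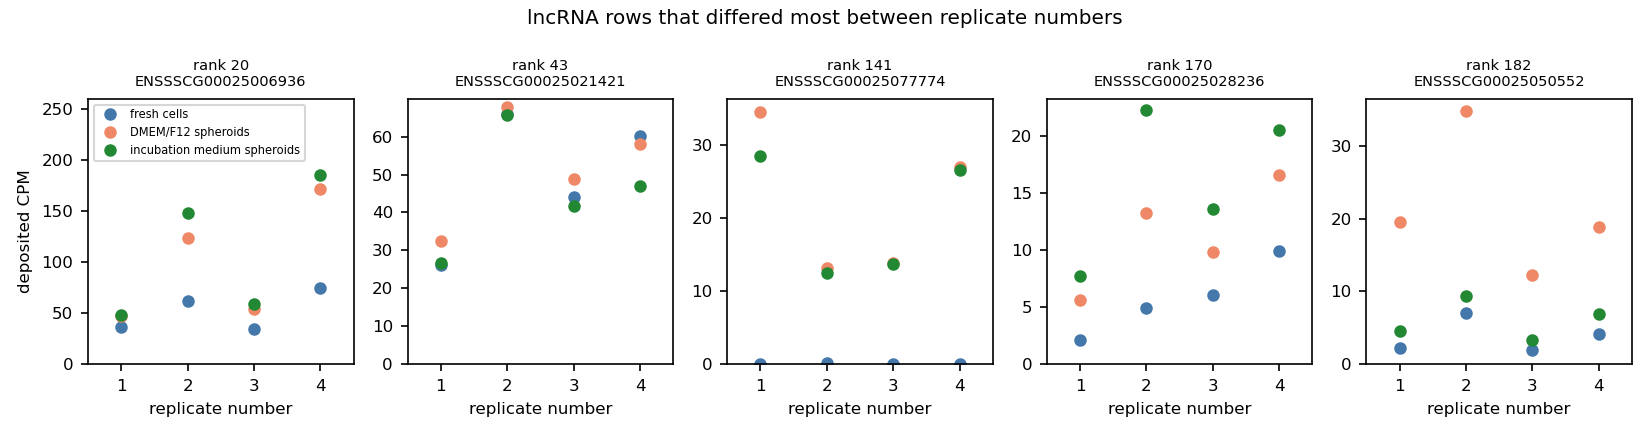
Deposited CPM (vertical axis, from 0) against replicate number (horizontal axis) for the 5 lncRNA rows with the largest test statistic for that number, with groups in colour; each point is 1 library. For rank 20 the replicates 2 and 4 stand above 1 and 3 in every group, up to 185 CPM, and for rank 43 replicate 1 is the lowest in every group.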

How the data were processed

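The submitters' processing notes name fastp 0.24.0, STAR 2.7.11, SAMtools 1.22.1 and featureCounts (Subread 2.1.1), with no settings. Genome build, annotation and use of molecular identifiers are not given in the sources used here. The authors deposited an expected count and a CPM per row and library, per the file headers. Many counts are simple fractions (a value within 1e-06 of a whole number was taken as whole), and each CPM equals the count over the library total to within 5e-06. The 92 spike-in rows (at most 0.000614% of a library) were left out of tests.

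CPM values printed here are the deposited ones. Tests used the counts, rounded to whole numbers, in edgeR 4.0.16 (R 4.3.3): quasi-likelihood tests after filterByExpr and TMM scaling, with the 12 libraries fitted together, adjusted by Benjamini-Hochberg over 14070 rows. TMM factors were 0.953 to 1.07, so a ratio of printed CPM can differ slightly from a fold change. The design had assumed counts that might be fractional. "Not overlapping" refers to deposited CPM. The fit was also run on simulated libraries, drawn independently and with few rows changed. Here many more rows were called and same-numbered libraries deviated together, so that run is not used to judge these calls. Confidence intervals (95%) of fold changes use the SE of the fit, and counting intervals cover counting error only, since PCR reads are not independent molecules.

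Same-numbered libraries deviated together in every pair of groups (correlation of deviations over tested rows 0.196 to 0.516). The edgeR values and counts of calls printed here nevertheless leave the replicate number out, unless the replicate block is named. For named members the blocked value is given where it changes a call. Named members are the 10 most abundant, the 3 largest rises and falls per comparison (called, no overlap, mean of at least 5 CPM), the 3 with the smallest ratio of highest to lowest library, and those at the limit of rank 200. Alternatives were DESeq2 1.42.0, other scalings and filters, unrounded or only whole counts, other rankings, and each library left out. The members, lists and rules were chosen with earlier results of these data known, and the test of the replicate number was added after the data had been seen. No sequences or positions were used here.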

Additional observations from a re-analysis of the deposited data

Results flagged for a closer look

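Among 99 groups of 4 values tested (each named member's CPM and 4 library shares in each group), 4 held a library that stood apart by Dixon's criterion, and chance flags about 1 in 20 groups. For ENSSSCG00025074111 (rank 8) it was fresh cell replicate 3 at 160 CPM, against 138 to 141 in the others. For ENSSSCG00025077774 (rank 141) it was fresh cell replicate 2 at 0.172 CPM, a single count. ENSSSCG00025050432 (rank 84) had both fresh cell replicate 3, at 19.2 CPM below 22.4 to 22.7, and incubation medium replicate 4, at 25.1 CPM above 8.56 to 10.3.

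In the media 2 named members differed from fresh cells in opposite directions, each called in both. ENSSSCG00025056281 (rank 28) was lower in DMEM/F12 and higher in incubation medium, and the media differed by 1.49 on the log2 scale (edgeR adjusted p = 3.01e-06). ENSSSCG00025050432 was higher in DMEM/F12 and lower in incubation medium, a difference of -1.46 (adjusted p = 0.00154). Its call in incubation medium was lost without any of 6 single libraries (adjusted p up to 0.117) and with only the groups compared (0.0553), and its call in DMEM/F12 without fresh cell replicate 3 (0.0608).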

How the results depend on the processing

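No named member reversed: of 1412 values of 87 tests under alternatives, 1379 kept direction and call, 20 lost a call and 13 gained one (4 and 6 tests). Counts of called members stayed within 1.5 times except where fewer rows entered. With only whole counts (61 members) they were 15 higher and 33 lower in DMEM/F12, 14 and 33 in incubation medium, and 8 and 6 between the media. Among the 100 highest the lower calls were 43, 40 and 12, and the higher ones in DMEM/F12 33. Ranking by the median (175 members shared) gave 58 higher and 89 lower, 58 and 93, and 26 and 32. The replicate block gave 59 and 108, 59 and 113, and 33 higher and 35 lower between the media, and beside the calls named above it changed none of the named ones. No share of all tested rows is given for these alternatives, so their counts of members are not set against one. Paired by replicate number, the differences in lncRNA share, -0.57 and -0.68 points, have an exact p of 0.125, the smallest 4 pairs allow. With only whole counts, thus fewer rows, they were -0.15 and -0.17 points. Leaving out single libraries moved them from -0.63 to -0.54 and from -0.73 to -0.64. The replicate number was called for 22 to 26 members under other scalings and without rounding. Depth limits rows near 3 counts, such as rank 189 in spheroids.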
